A study of Mus musculus with 6 samples.

Results

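The genes described here are 30 genes of peroxisome biogenesis and metabolism in primary brite adipocytes. They were taken from the deposited table by their symbols, and all 30 were found among its 52089 symbols. They comprise 12 peroxins, which build the organelle and import its proteins, 17 enzymes and transporters, and *Pmp22*. Preadipocytes were isolated from the stromal-vascular fraction of inguinal white adipose tissue (WAT) of 129SvEv mice. After an induction of 2 days they spent 1 day in differentiation medium with rosiglitazone, a PPARγ agonist that favours the thermogenic brite phenotype. Both groups shared this strain and treatment, and both received an LNA gapmer antisense oligonucleotide at 50 nM. In the *Ctcflos* KD group (n = 3) the oligonucleotide was directed against the long noncoding RNA *Ctcflos*, and in the control group (n = 3) it had no target, with both groups harvested 24 h after transfection. In these libraries a single oligonucleotide against *Ctcflos* was used, so that the loss of *Ctcflos* and any other effect of this oligonucleotide cannot be told apart.

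Peroxisomes are single-membrane organelles that shorten very long-chain, branched and dicarboxylic fatty acids, start the synthesis of ether lipids and break down the hydrogen peroxide that their oxidases release. Peroxins of the PEX3, PEX16 and PEX19 group place proteins into the membrane, receptors such as PEX5 and PEX7 carry enzymes from the cytosol to a docking site of PEX13 and PEX14, and a RING and ATPase machinery recycles the receptors. Brown and brite fat cells are rich in these organelles, and many of their genes are textbook targets of PPAR transcription factors. *Pmp22* does not belong to this organelle: it encodes peripheral myelin protein 22, a plasma membrane protein of myelin, while the peroxisomal membrane protein of a similar name is *Pxmp2*. *Pmp22* was kept as listed, and counts are also given without it.

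In the KD libraries *Ctcflos* (1300015D01Rik) was at 0.0969, 0.0705 and 0.210 RPKM (reads divided by transcript length in kilobases and by the depth of the library), against 0.748, 0.751 and 0.840 RPKM in the controls. The groups did not overlap, and the KD mean was 16.1% of the control mean (limma adjusted p = 0.025 in the fit without an expression filter, and 0.062 to 0.13 when any one library other than KD library 3 was left out). Depth, recovered from the values, was 60.4 to 75.2 mio mapped reads in KD and 62.6 to 79.2 mio in control libraries. KD library 3 held the most *Ctcflos* of the KD libraries, and across genes it correlated more with control library 2 (r = 0.985) than with KD libraries 1 (r = 0.969) and 2 (r = 0.975). It was the KD library nearest to the control mean in 57.5% of all genes and in 20 of 29 tested peroxisome genes. Results are therefore given with and without it. The summed level of 11 adipocyte markers was 5005 to 6504 RPKM in KD and 6640 to 7344 RPKM in control libraries, without overlap. *Fabp4* had the largest mean among them, 3291 RPKM in KD and 4041 RPKM in control libraries. Of the 11, 9 had negative and 2 positive differences. The positive ones were *Plin4* (log2 fold change 0.16, limma adjusted p = 0.42) and *Cidec* (0.11, 0.59). The summed level of 8 brite markers was 70.8 to 92.0 RPKM in KD and 124 to 195 RPKM in control libraries, also without overlap. Of these, *Prdm16* and *Dio2* were under 1 RPKM in every library. *Prdm16* was lower, and *Dio2* was higher, in every KD library than in any control. Of the markers tested, 1 of 11 adipocyte and 3 of 6 brite markers were called, all lower, where 24.0% of all genes were called and 12.4% fell. All 6 endothelial markers were under 1 RPKM in every library, *Cd3e* was at 0, and the summed level of 7 macrophage and leukocyte markers overlapped between groups, at 7.21 to 16.7 RPKM in KD and 9.07 to 28.2 RPKM in control libraries. Of the 2 of these that were tested, *Cd68* was higher in KD (log2 fold change 1.05, limma adjusted p = 0.023) and *Lyz2* had a difference of -1.45 without passing the test (limma adjusted p = 0.17). *Cd68* was called in 2 of the 6 fits that left out 1 library. Below the filter, *Csf1r* was higher, and *Ptprc* and *Cd14* were lower, in every KD library than in any control. The part of these marker differences in the results was not tested, and in bulk RNA a smaller number of differentiated cells and less RNA per cell cannot be told apart.

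A gene counts as called when its difference had a limma adjusted p under 0.05, tested on log2(RPKM + 1) of the mean over the gene's accessions for genes of mean RPKM of at least 1. Fold changes are *Ctcflos* KD minus control on that scale. Adding 1 makes the fold changes of weak genes smaller. That of *Acot5*, a peroxisomal gene outside the list, was -1.01, and -1.55 with 0.1 added instead. The filter kept 29 of the 30 genes and left out *Pecr*. Of the 29, 7 were called (24.1%), while 24.0% of all 11701 genes tested were called, so that the share of peroxisome genes called stood at the background. 2 genes rose, *Pex11a* and *Crot*, where 11.5% of all genes rose. 5 fell, *Abcd3*, *Pex14*, *Pex16*, *Gnpat* and *Pmp22*, where 12.4% of all genes fell. The log2 fold changes ranged from -1.15 to 0.81, with a median of -0.12 against 0.03 over all genes, and 21 of 29 were negative (72.4%, against 46.8% of all genes). KD and control libraries did not overlap in 10 of the 29, against 44.8% of all genes. Without *Pmp22*, 6 of 28 were called (21.4%). The summed level of the 30 genes was 429, 468 and 499 RPKM in KD and 538, 472 and 540 RPKM in control libraries, and that of the 12 peroxins 150, 162 and 151 RPKM and 160, 142 and 165 RPKM, so that both sums overlapped between groups.

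**Figure D1:**
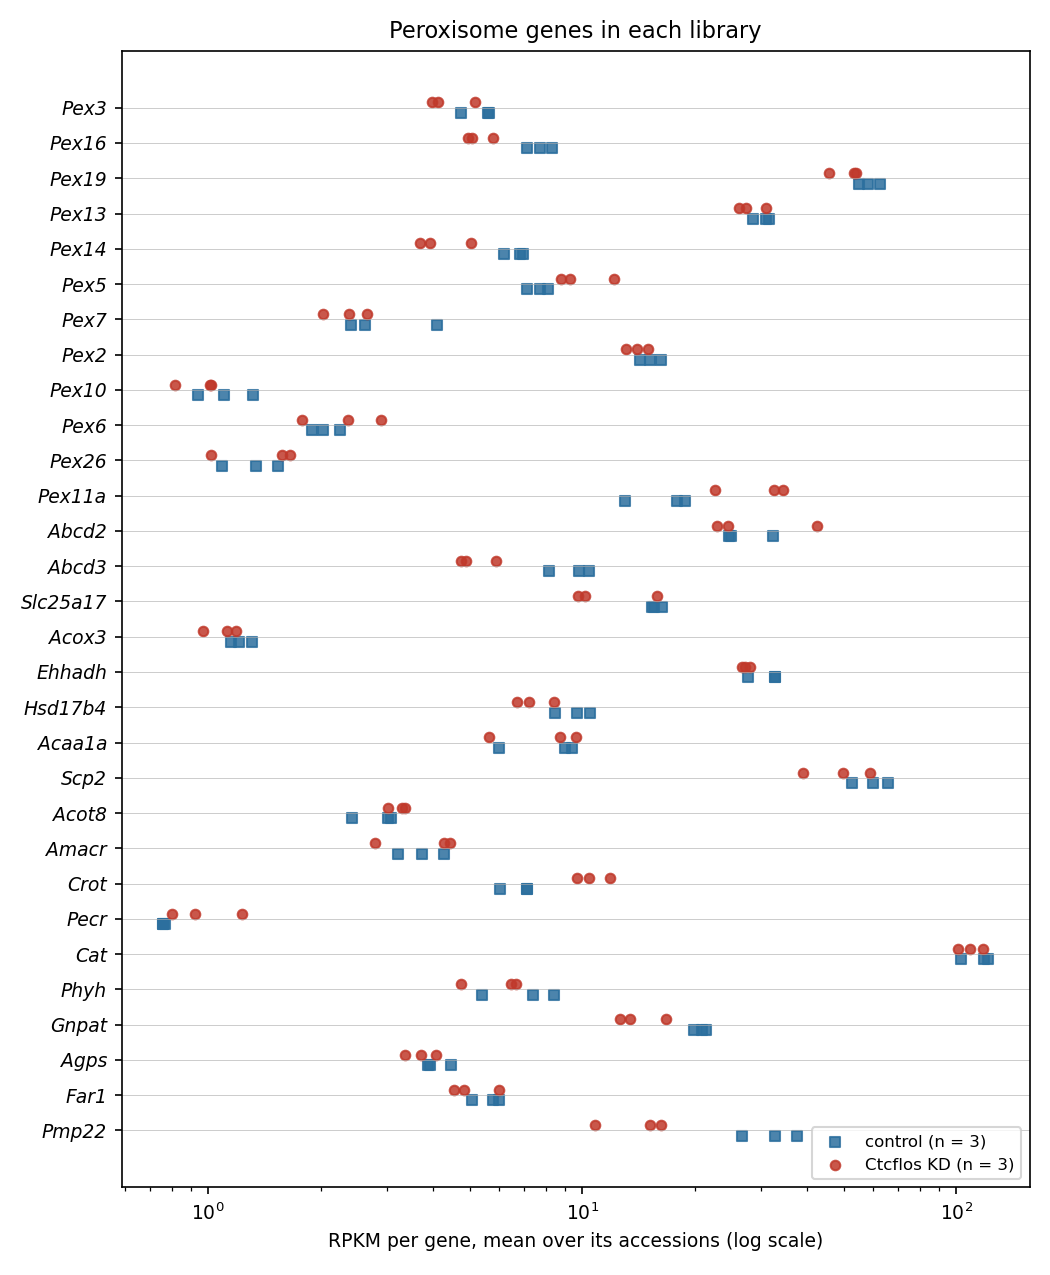
Level of each of the 30 genes in RPKM (log scale) in the 3 *Ctcflos* KD libraries (circles) and the 3 control libraries (squares), ordered by role. KD and control points are separate for 7 tested genes with lower KD values and for 3 with higher KD values, and *Cat* is the most abundant gene of the list.

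**Figure D2:**
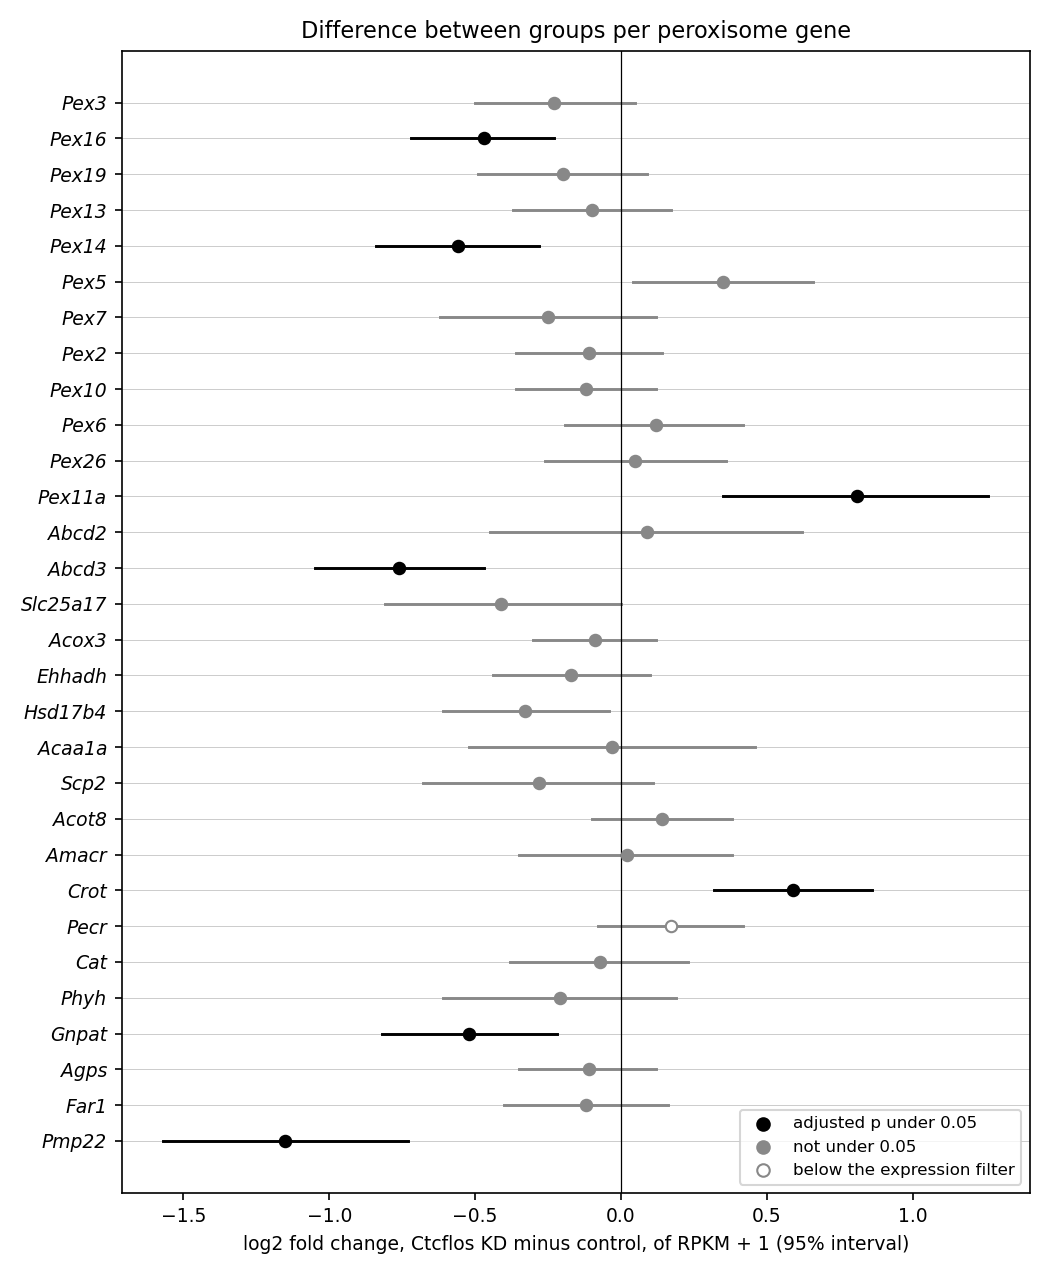
Log2 fold change of each gene with its 95% confidence interval, *Ctcflos* KD minus control, n = 3 libraries per group. Black marks the 7 called genes, and the open circle marks *Pecr*, which lay below the expression filter and is from the fit without it.

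*Pex11a* showed the largest increase. It encodes a membrane protein of peroxisome division, the inducible member of its family, and lies at chr7:79735957-79743131 in Gencode vM21 (GRCm38), which also gives the positions below. KD libraries 1, 2 and 3 had 32.6, 34.5 and 22.6 RPKM, and the control libraries 17.9, 13.0 and 18.8 RPKM. All KD values were above all control values, and KD library 3 was the lowest of its group. The mean was 29.9 ± 6.35 RPKM (SD, n = 3) in KD against 16.6 ± 3.14 RPKM (SD, n = 3) in control libraries, which is 1.80-fold (log2 fold change 0.81, SE 0.197, limma adjusted p = 0.024). Without KD library 3 the log2 fold change was 0.99 (limma adjusted p = 0.0036). When any one of the other 5 libraries was left out, the call was lost, with limma adjusted p between 0.069 and 0.080. All 6 accessions of the gene were higher in KD, at 177% to 194% of the control mean. *Pex11g*, a relative outside the list, had a log2 fold change of -0.20 (limma adjusted p = 0.25).

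*Crot* was the other gene that rose. It encodes carnitine octanoyltransferase, which turns the medium-chain products of peroxisomal β-oxidation into carnitine esters that can leave for the mitochondria, and lies at chr5:8966033-8997324. It was at 10.4, 11.9 and 9.69 RPKM in KD and at 7.13, 6.02 and 7.10 RPKM in control libraries, without overlap. Its level was 1.58-fold that of controls (log2 fold change 0.59, SE 0.117, limma adjusted p = 0.014, and 0.0044 without KD library 3). The call was lost without control library 1 (limma adjusted p = 0.058) or control library 3 (0.061). All 5 *Crot* accessions were higher in KD, at 156% to 181% of control.

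Of the membrane transporters of the list, *Abcd3* was called lower, while *Abcd2* and *Slc25a17* were not called with all libraries. *Abcd3* encodes PMP70, the ABC transporter through which branched-chain acids and bile acid precursors enter the organelle, and lies at chr3:121758774-121815302. Its KD values were 4.75, 4.89 and 5.89 RPKM, and its control values 10.4, 8.15 and 9.82 RPKM. Every KD library was below every control, and the KD mean was 54.7% of the control mean (log2 fold change -0.76, SE 0.125, limma adjusted p = 0.0086, and 0.0018 without KD library 3). Limma adjusted p was 0.053 without control library 1 and also 0.053 without control library 3. *Abcd2*, a transporter of very long-chain and polyunsaturated acyl-CoA, was at 22.9, 24.6 and 42.4 RPKM in KD and at 24.7, 32.3 and 25.0 RPKM in control libraries. KD library 3 stood alone at the top, the groups overlapped, and the log2 fold change of 0.09 (limma adjusted p = 0.81) turned to -0.18 without that library (limma adjusted p = 0.34). *Slc25a17*, the peroxisomal carrier of CoA, FAD and NAD, had 9.74, 10.2 and 15.9 RPKM in KD and 16.3, 15.4 and 15.6 RPKM in control libraries. KD library 3 was at the control level and the other two were below it, so that the gene missed the threshold with all libraries (log2 fold change -0.41, limma adjusted p = 0.13) and passed it without KD library 3 (-0.61, limma adjusted p = 0.0030).

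RefSeq windows of 250 bases before to 50 after the gene start (build GRCm38.p6) held 25 of the 30 genes, with none for *Abcd2*, *Amacr*, *Pex2*, *Hsd17b4* and *Pex19*. The bases upstream of the start are shown for *Pex11a* and *Crot*, which rose, and for *Abcd3* and *Gnpat*, which fell, on the strand of the gene and read 5′ to 3′. Capitals mark an ETS core, CCGGAAG or its reverse complement, and a loose NRF1 site, GCGCA and GCGC with 1 base between them, or its reverse complement. The windows are chr7:79743132-79743381 (minus strand), chr5:8997325-8997396 (minus strand, the part outside the annotated first exon), chr3:121815303-121815552 (minus strand) and chr8:124863003-124863032 (plus strand, the last 30 bases before the start).
*Pex11a*: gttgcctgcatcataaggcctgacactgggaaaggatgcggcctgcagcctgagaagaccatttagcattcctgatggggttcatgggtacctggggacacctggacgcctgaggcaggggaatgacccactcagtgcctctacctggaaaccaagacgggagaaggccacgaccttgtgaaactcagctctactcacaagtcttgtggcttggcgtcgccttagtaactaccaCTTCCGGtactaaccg
*Crot*: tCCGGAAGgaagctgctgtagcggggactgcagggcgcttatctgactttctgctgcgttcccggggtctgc
*Abcd3*: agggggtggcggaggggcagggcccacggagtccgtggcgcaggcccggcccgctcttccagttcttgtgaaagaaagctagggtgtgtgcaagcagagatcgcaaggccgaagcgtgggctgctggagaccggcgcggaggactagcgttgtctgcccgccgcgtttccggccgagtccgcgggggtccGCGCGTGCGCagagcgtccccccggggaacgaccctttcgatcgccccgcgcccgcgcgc
*Gnpat*: cgcccagtgcccaccacttccgCTTCCGGc
The ETS core began at base -16 in *Pex11a*, -249 in *Crot* and -8 in *Gnpat*, counted from the RefSeq start, which for *Crot* is base 8997146 and lies inside the Gencode gene. It thus occurred in genes of both directions. Of 13 motifs searched on both strands it was picked for display after the counts were seen. It was found in 7 of the 25 genes (28.0%), against 9.93% of all 27025 genes with a window and 22.3% of the 6950 genes that were also tested for abundance. The loose NRF1 site was found in 2 of the 25 genes (8.0%, against 12.7% of tested genes) and CCAAT in 13 (52.0%, against 43.8%). AGGNCA repeated with 1 base between the copies, a loose form of the direct repeat bound by PPAR and RXR that includes the exact repeat of AGGTCA, was found in none of the 25 and in 0.245% of tested genes, which says only that these letters are not in these windows. A match is a description of the letters and no evidence of binding.

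In the machinery that inserts membrane proteins, *Pex16* fell. Its product sits in the membrane of the endoplasmic reticulum and of peroxisomes and recruits PEX3, and the gene lies at chr2:92374676-92381217. *Pex16* was at 4.95, 5.09 and 5.79 RPKM in KD and at 7.72, 7.12 and 8.32 RPKM in control libraries, without overlap (68.3% of control, log2 fold change -0.47, SE 0.105, limma adjusted p = 0.018, and 0.0053 without KD library 3). All 7 accessions were lower in KD, at 64.7% to 75.2% of control. The call was lost without KD library 1 or 2 (limma adjusted p = 0.059 and 0.060) and without control library 1 or 3 (0.082 and 0.092). *Pex19*, the cytosolic chaperone for membrane proteins, had 45.7, 53.3 and 53.9 RPKM in KD and 58.0, 55.0 and 62.5 RPKM in control libraries. These values did not overlap either, yet the difference was small (log2 fold change -0.20, limma adjusted p = 0.27). *Pex3*, the membrane receptor for PEX19, had 3.96, 4.12 and 5.17 RPKM in KD and 5.64, 4.73 and 5.60 RPKM in control libraries, and its groups overlapped through KD library 3 and control library 2 (log2 fold change -0.23, limma adjusted p = 0.20, and 0.037 without KD library 3).

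At the docking site, *Pex14* fell and *Pex13* did not pass the test. PEX14 is the membrane protein to which the loaded import receptors bind, and its gene lies at chr4:148960535-149099876. *Pex14* had 3.93, 3.68 and 5.03 RPKM in KD and 6.93, 6.19 and 6.81 RPKM in control libraries, without overlap (63.5% of control, log2 fold change -0.56, SE 0.120, limma adjusted p = 0.017, and 0.0017 without KD library 3). The call was lost without KD library 1 or 2 (limma adjusted p = 0.055 and 0.059) and without control library 1 or 3 (0.081 each). With a span of 139 kb, *Pex14* was 1 of 2 tested peroxisome genes of at least 100 kb, the other being *Scp2*. Among all tested genes with a known span, 922 of at least 100 kb had a median log2 fold change of -0.34 and 8567 shorter ones of 0.05, and the part of gene length in the result was not tested. Of its exonic bases, 28.3% also lie in exons of Gm17029 on the opposite strand, whose values moved alike (3.22, 3.17 and 4.39 RPKM in KD, 6.04, 5.49 and 5.88 RPKM in control libraries), and reads of the pair cannot be told apart since no source says whether reads were counted by strand. *Pex13*, the other docking protein, had 28.3 ± 2.54 RPKM in KD and 30.4 ± 1.56 RPKM in control libraries (mean ± SD, n = 3), with overlapping groups (log2 fold change -0.10, 95% interval -0.37 to 0.17, limma adjusted p = 0.55).

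The soluble import receptors had opposite signs. *Pex5*, the receptor for the common C-terminal targeting signal, had 12.2, 9.27 and 8.80 RPKM in KD and 7.71, 7.13 and 8.09 RPKM in control libraries. All KD values were above the controls, and the gene did not pass the test with all libraries (log2 fold change 0.35, SE 0.135, limma adjusted p = 0.095) but passed it without KD library 3 (0.43, limma adjusted p = 0.034). *Pex7*, the receptor for the N-terminal signal that brings in PHYH and AGPS, had 2.03, 2.38 and 2.66 RPKM in KD and 4.10, 2.41 and 2.63 RPKM in control libraries. Control library 1 stood alone at the top, and the other libraries overlapped (log2 fold change -0.25, limma adjusted p = 0.28). The ubiquitin ligases that mark receptors for recycling, *Pex2* and *Pex10*, had log2 fold changes of -0.11 and -0.12. The ATPase *Pex6* and its membrane anchor *Pex26*, which pull receptors out, were at 0.12 and 0.05. None of these 4 genes passed the test. With the peroxins outside the list counted in, 16 peroxins were tested, 1 rose and 2 fell (18.8% called, where 24.0% of all genes were called).

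The β-oxidation enzymes had small negative differences, and none of the 5 was called. *Hsd17b4*, the multifunctional protein for branched and very long-chain substrates, came nearest with 6.68, 7.20 and 8.39 RPKM in KD and 10.5, 8.47 and 9.66 RPKM in control libraries. The groups were just separate, with KD library 3 next to control library 2 (log2 fold change -0.33, SE 0.123, limma adjusted p = 0.089, and 0.026 without KD library 3). *Scp2*, the thiolase and sterol carrier for branched chains, had 39.0, 49.7 and 58.8 RPKM in KD and 65.9, 52.7 and 60.1 RPKM in control libraries and a log2 fold change of -0.28 (limma adjusted p = 0.26). *Ehhadh*, the multifunctional protein for straight and dicarboxylic chains, was at 27.4 ± 0.651 RPKM in KD and 31.0 ± 2.89 RPKM in control libraries (mean ± SD, n = 3), with a log2 fold change of -0.17 (95% interval -0.44 to 0.10). The branched-chain oxidase *Acox3* had -0.09 at a level near the filter, 1.09 RPKM in KD and 1.23 RPKM in control libraries. The thiolase *Acaa1a* had -0.03 with a wide interval of -0.52 to 0.46, and its values are uncertain because reads can be divided with the near-identical *Acaa1b*. Its sign changed to 0.18 without KD library 3.

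Among the accessory enzymes other than *Crot*, *Acot8*, a thioesterase that releases CoA from chain-shortened products, had a log2 fold change of 0.14 (limma adjusted p = 0.34). *Amacr*, the racemase that prepares branched chains for oxidation, had 0.02 (limma adjusted p = 0.95). *Pecr*, a trans-2-enoyl-CoA reductase of chain elongation, was at 1.23, 0.920 and 0.801 RPKM in KD and at 0.757, 0.757 and 0.765 RPKM in control libraries. KD values were higher in every library, but the gene lay under the filter, and in the fit without it the limma adjusted p was 0.40. *Acot8* and *Pecr* share 12.3% and 11.5% of their exonic bases with a gene on the opposite strand. *Cat*, the catalase that removes hydrogen peroxide, was the most abundant gene of the list and did not pass the test, at 101, 109 and 118 RPKM in KD and 119, 103 and 122 RPKM in control libraries (95.1% of control, log2 fold change -0.07, 95% interval -0.38 to 0.23). *Phyh*, which starts the α-oxidation of phytanic acid, had 5.94 ± 1.04 RPKM in KD and 7.06 ± 1.54 RPKM in control libraries (mean ± SD, n = 3, log2 fold change -0.21, limma adjusted p = 0.40).

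Of the ether lipid genes, the one for the first step fell. *Gnpat* encodes the dihydroxyacetone phosphate acyltransferase with which plasmalogen synthesis begins, and lies at chr8:124863033-124890057. Its KD values were 12.6, 13.4 and 16.8 RPKM, and its control values 20.9, 19.9 and 21.4 RPKM, with no overlap and little spread among the controls. The KD mean was 68.8% of control (log2 fold change -0.52, SE 0.130, limma adjusted p = 0.026, and 0.0033 without KD library 3), and all 11 accessions were lower, at 63.6% to 71.8% of control. When any one of the other 5 libraries was left out the call was lost, with limma adjusted p between 0.059 and 0.11. *Agps*, which exchanges the acyl for an alkyl chain in the next step, had 3.71 ± 0.356 and 4.09 ± 0.332 RPKM, and *Far1*, which supplies the fatty alcohol, 5.11 ± 0.764 and 5.62 ± 0.484 RPKM (mean ± SD in KD and control, n = 3 each). Both pairs of groups overlapped, with log2 fold changes of -0.11 and -0.12 and 95% intervals of -0.35 to 0.12 and -0.40 to 0.16.

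*Pmp22*, at chr11:63128982-63159547, had the largest decrease of the 30 genes. It was at 10.8, 15.2 and 16.2 RPKM in KD and at 32.7, 26.7 and 37.5 RPKM in control libraries. The highest KD value was well below the lowest control value, and the KD mean was 43.5% of control (log2 fold change -1.15, SE 0.183, limma adjusted p = 0.0078). It was called in each of the 6 fits that left out 1 library, with limma adjusted p between 0.0022 and 0.049. Since *Pmp22* is abundant in Schwann cells and is also made by fibroblasts, markers of both were read beside it. Of 5 Schwann cell markers, 4 were under 1 RPKM in every library, among them *Sox10* and *Mbp*. The sum of the 5 was 1.47 to 1.67 RPKM in KD and 2.13 to 2.70 RPKM in control libraries, without overlap. *S100b*, the one Schwann cell marker tested, was lower in KD (log2 fold change -0.55, limma adjusted p = 0.018). It was called in 2 of the 6 fits that left out 1 library. The sum of 9 preadipocyte and fibroblast markers was 436 to 690 RPKM in KD and 596 to 823 RPKM in control libraries, so that the groups overlapped. Of its 6 markers tested, 4 had negative and 2 positive differences, and 1 was called, *Pdgfra*, which was lower in KD (log2 fold change -0.69, limma adjusted p = 0.010). The part of these cells in the result was not tested. The peroxisomal *Pxmp2* was far less abundant, at 0.323 ± 0.059 RPKM in KD and 0.472 ± 0.0956 RPKM in control libraries (mean ± SD, n = 3), under the filter and with overlapping groups.

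**Figure D3:**
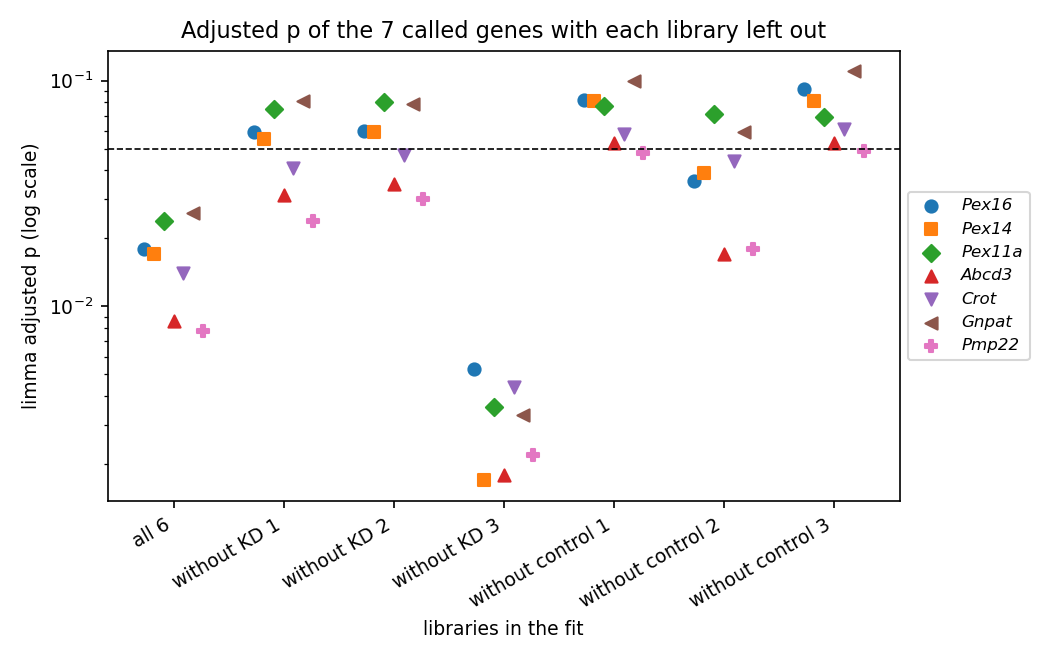
Limma adjusted p (log scale) of the 7 called genes with all 6 libraries and with each library left out, with the threshold of 0.05 as a dashed line. *Pmp22* stayed under the line throughout, and all 7 genes were lowest without KD library 3, where the values lie between 0.0017 and 0.0053.

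The libraries differed in how much the calls rested on them. In each of the 7 called genes, KD library 3 was the KD library nearest to the controls. Without it, 11 of 29 peroxisome genes were called (3 higher and 8 lower), and the genes added were *Pex3*, *Pex5*, *Hsd17b4* and *Slc25a17*. Without KD library 1, and also without KD library 2, 3 were called, and without control library 2, 5. Without control library 1, and also without control library 3, *Pmp22* was the one gene of the list called, of 29 and 28 tested. The count over all genes went the same way, and was 2803 of 11701 with all libraries. Without KD library 1, 2 and 3 it was 1164 of 11563, 1094 of 11751 and 4810 of 11704. Without control library 1, 2 and 3 it was 421 of 11689, 1583 of 11697 and 369 of 11692.

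Accession usage asks whether the accessions of a gene changed by different amounts, as a change of isoform would give. It was tested with limma diffSplice on log2(RPKM + 0.1) for accessions of mean RPKM of at least 1. None of the 29 peroxisome genes was called, against 0.768% of 10027 genes (77 genes), and 2 had an unadjusted Simes p under 0.05. The smaller was that of *Abcd3* (limma adjusted p = 0.129). There the GenBank clone AK031611 was at 0.878, 0.835 and 1.15 RPKM in KD and 1.06, 1.06 and 1.14 RPKM in control libraries, while the curated mRNA NM_008991 fell from 20.0, 15.6 and 18.8 RPKM in the controls to 8.94, 9.36 and 11.1 RPKM in KD. The clone therefore overlapped between groups where the mRNA did not. With a pseudocount of 1 *Abcd3* was called, and with accessions from 0.1 RPKM *Pex14* was called. The other was *Pex19* (limma adjusted p = 1), through the transcript ENSMUST00000133546. Overlapping accessions share reads and are not independent, and the values hold no splice junctions.

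Of 48 other peroxisomal genes, 36 were tested, of which 26 had a negative difference and 10 were called, all of them lower (27.8%, where 24.0% of all genes were called and 12.4% fell), with a median log2 fold change of -0.23. The smallest adjusted p-values were those of *Lonp2*, the peroxisomal Lon protease, at 29.8 ± 1.71 RPKM in control and 16.6 ± 2.09 RPKM in KD libraries (mean ± SD, n = 3, log2 fold change -0.81, limma adjusted p = 0.0075), and of *Acot5*, an acyl-CoA thioesterase at 35.5% of control (-1.01, limma adjusted p = 0.013), whose reads can be divided with close paralogs. *Lonp2* lost its call without control library 3 (limma adjusted p = 0.051), and *Acot5* without control library 1 or 3 (0.056 and 0.060). *Acot3*, *Nudt7*, *Paox*, *Idh1*, *Ephx2*, *Mpv17l* and *Hsdl2* were also called, with log2 fold changes between -0.33 and -0.69. The count of 10 went to 3, 2 and 14 without KD library 1, 2 and 3. Without control library 1, 2 and 3 it was 1, 6 and 0, the last of 35 tested. In the same order, the count over all genes went from 2803 to 1164, 1094 and 4810 and to 421, 1583 and 369. None of the 3 genes of the shared fission machinery was called.

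Among 10 regulators of peroxisomal and oxidative genes, 8 were tested and 4 fell (50.0%, where 24.0% of all genes were called and 12.4% fell). *Rxra*, the partner of PPAR on DNA, was at 1.73, 1.28 and 2.59 RPKM in KD and 4.81, 4.81 and 4.75 RPKM in control libraries (log2 fold change -1.04, limma adjusted p = 0.0071), and it was called whichever library was left out. *Ppara*, the receptor named for peroxisome proliferation, was at 5.00, 4.69 and 5.07 RPKM in KD and 11.5, 6.62 and 11.1 RPKM in control libraries (-0.83, limma adjusted p = 0.019). Its groups did not overlap, and the call was lost without KD library 1 or 2 or control library 1 or 3 (limma adjusted p between 0.055 and 0.086). The coactivators *Ppargc1a* (-0.55, limma adjusted p = 0.049) and *Ppargc1b* (-0.54, 0.033) also fell. *Ppargc1a* was called in no fit that left out a library other than KD library 3 (limma adjusted p between 0.096 and 0.17), and *Ppargc1b* lost its call without KD library 2 or any one control library (0.055 to 0.11). *Pparg*, the adipogenic receptor, was at 40.1 ± 5.23 RPKM in KD and 51.5 ± 3.26 RPKM in control libraries (mean ± SD, n = 3, log2 fold change -0.36, limma adjusted p = 0.090, and 0.037 without KD library 3). Of 19 genes of mitochondrial β-oxidation, all had negative differences (46.8% of all genes did), with a median of -0.30, and 5 were called, all lower (26.3%, where 24.0% of all genes were called and 12.4% fell). Negative differences numbered 17 without KD library 3, 16 without control library 1 and 18 without control library 3. The 3 with the smallest adjusted p were *Acad9* (log2 fold change -0.83, limma adjusted p = 0.0092), the trifunctional protein subunit *Hadha* (-0.73, 0.011) and *Cpt1a*, which admits acyl chains to mitochondria (-0.47, 0.017). *Cpt1a* lost its call without KD library 2 (limma adjusted p = 0.056). The 5 called went to 3 without KD library 1, to 2 without KD library 2 and to 0 without control library 1 or control library 3. The count over all genes went from 2803 to 1164, 1094, 421 and 369 in these fits. The difference between these lists and the peroxisome genes was not tested.

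**Figure D4:**
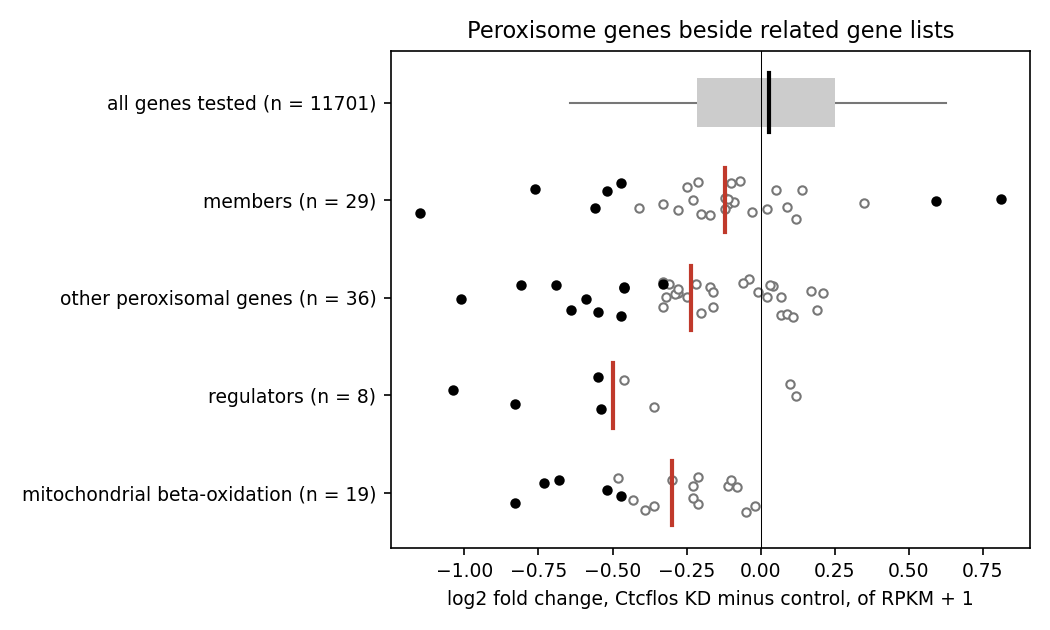
Log2 fold change (*Ctcflos* KD minus control) of each tested gene in 4 lists, with called genes as filled circles, genes not called as open circles and list medians as red lines. The grey box and whisker line give the middle 50% and the 5th to 95th percentile of all 11701 genes, from -0.64 to 0.63, and the median of every list lies left of the median of all genes.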

How the data were processed

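Total RNA of 6 libraries, 3 with *Ctcflos* KD and 3 controls as labelled, was sequenced by the authors in 150 bp paired-end reads (TruSeq Stranded Total RNA kit). The deposited table holds RPKM values per transcript accession, made by the authors, with replicates kept apart. For splicing, the study names STAR 2.5.3a, GRCm38 and Gencode vM21. How the RPKM values were made, and whether strand was used, is not given in the sources used here. From the 168326 lines, 305 exact repeats were removed. The gene value is the mean RPKM of every accession listed for the symbol, so levels of genes with many weak accessions are understated.

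Abundance was tested with limma-trend (limma 3.58.1, R 4.3.3) on log2(RPKM + 1) for genes of mean RPKM of at least 1, and usage with limma diffSplice, with Benjamini-Hochberg adjustment over all genes tested and a threshold of 0.05. The scripts were tested on simulated data with independent noise of the same spread for every gene and accession. Reads shared between accessions, and a library that departs from its group, were not simulated. Depth was recovered from the value of 1 read in low RPKM values of Ensembl transcripts of known length. RPKM hold no counts, so a count test was not used. Replicate numbers come from the labels. No source states that the libraries of a group came from separate cultures, so p-values measure only the spread between these libraries, which may be technical. Single values of 3 against 3 libraries cannot go below p = 0.1 in an exact permutation test, the value found for *Ctcflos*.

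The 30 genes and the other gene lists were chosen with earlier results of these data known. Named were all 30 genes, *Ctcflos*, the nearest relatives in the pathway, and of each other list the 3 called genes of smallest adjusted p in each direction; further genes of small counts were named after their values were seen. Some of these genes are not reported here. Gene spans and exon overlaps are from Gencode vM21 and RefSeq (spans for 81.1% of tested genes), and promoter windows from RefSeq. Python 3.11.15 and pandas 2.3.3 were used.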

Additional observations from a re-analysis of the deposited data

How the results depend on the processing

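Alternatives were a pseudocount of 0.1, no expression filter, median-of-ratios scaling, curated RefSeq accessions alone, the replicate number as a block, a threshold of 0.01 and leaving out each library. With 29 genes tested (28 without control library 3), the peroxisome genes called ranged from 1 to 11 when 1 library was left out (higher 0 to 3, lower 1 to 8, and 0 to 10 without *Pmp22*). Other peroxisomal genes called ranged from 0 to 14, those of mitochondrial β-oxidation from 0 to 6, regulators from 1 to 6, and all genes from 369 to 4810, the lowest without control library 3 and the highest without KD library 3. At adjusted p under 0.01, 2 peroxisome genes were called (2 lower and 0 higher, 1 without *Pmp22*), with 1 other peroxisomal gene, 1 mitochondrial gene, 1 regulator and 523 genes in all. Without the filter, 1807 of 38335 genes were called, with 5 of 30 peroxisome genes (1 higher and 4 lower). There, 3 of 48 other peroxisomal genes and 1 of 10 regulators were called. With the replicate block 1671 of 11701 genes were called, with 5 of 29 peroxisome genes (1 higher and 4 lower) and 4 of 36 other peroxisomal genes. *Pex11a* (limma adjusted p = 0.057) and *Gnpat* (0.055) lost their calls with the block. Between a KD and a control library of the same number, deviations correlated at 0.287, -0.288 and -0.418 for numbers 1, 2 and 3. The signs were mixed, and with 3 libraries per group these values cannot show whether the numbers pair the libraries. *Ctcflos* kept its direction, with a log2 fold change of -0.63 to -0.72 with 1 library left out, where its call was lost in all but the fit without KD library 3 (adjusted p 0.062 to 0.13), and of -0.66 with the replicate block, where it was lost too (0.11). These fold changes of *Ctcflos* are made small by the 1 added to levels under 1 RPKM, as its KD mean was 16.1% of control. Accession usage gave 1 peroxisome gene with a pseudocount of 1 and 1 with accessions from 0.1 RPKM, where 367 genes were called in all, and 36 to 208 genes with 1 library left out. The sign turned in 4 genes of small difference: *Pex26* ranged from -0.02 to 0.18, *Abcd2* from -0.18 to 0.24, *Acaa1a* from -0.21 to 0.18 and *Amacr* from -0.08 to 0.18 over libraries left out, and *Amacr* was at -0.01 with median-of-ratios scaling. The cause of these shifts was not tested. With 3 libraries per group, differences as small as those of most of the 22 peroxisome genes not called were not detectable beyond the spread between libraries.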
